A study of Mus musculus with 6 samples.

Results

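The genes described here encode the proteins that remove the cap of mRNAs and degrade them in P-bodies. They were chosen by name and not by a measured value, although earlier results of these data were known. The list held 10 genes, namely *Dcp1a*, *Dcp1b*, *Dcp2*, *Ddx6*, *Edc3*, *Edc4*, *Lsm1*, *Pan2*, *Pan3* and *Xrn1*. Through the accession that each probe was designed on, 12 of the 41174 probes of the array were matched to 9 of these genes, among 16535 genes matched in all. *Dcp1a*, *Pan3* and *Xrn1* each had 2 probes. *Dcp2*, the catalytic subunit of the decapping enzyme, had no matched probe and is not analysed here.

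Total RNA of male gonads from mouse embryos at E14.5 was hybridized to 6 one-color Agilent arrays, 2 for each of 3 genotypes, in animals of a mixed ICR and N2 background. Nanos2+/- gonads kept 1 functional allele of *Nanos2* and served as the control. Nanos2-/- gonads lacked the gene, and the Nanos2-/-_Tg+ gonads lacked it too but carried a transgene for 3×FLAG-tagged Nanos2-ΔN10, a protein without the first 10 amino acids. The transgene was driven by the *Nanos2* enhancer, and the study bred its null embryos from a LacZ knock-in allele and carried its analyses forward with a single transgenic line. Whole gonads were measured, so that fewer cells of a type and less RNA per cell cannot be told apart. The labels call the 2 arrays of a genotype biological duplicates but do not say how many embryos each array holds.

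An mRNA is usually committed to decay by the shortening of its poly(A) tail, first by PAN2-PAN3 and then by the CCR4-NOT complex, after which the LSM ring and DDX6 promote removal of the cap by DCP2 and its activators, and XRN1 digests the body from its exposed end. Many of these proteins gather with silenced mRNAs in cytoplasmic granules called P-bodies. NANOS2, an RNA-binding protein of male gonocytes, is found partly in P-bodies and recruits CCR4-NOT to its targets. The comparisons below ask at what level the mRNAs of this machinery were present in each genotype.

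The start regions of the genes are shown first, because they hold features that the choice of genes did not use. RefSeq promoter sequences, 250 bases before to 50 bases after the transcription start on GRCm38.p6, were matched for 7 of the 10 genes. *Dcp2*, *Ddx6* and *Lsm1* had no entry, so their start regions were not examined. The median number of CpG dinucleotides in the 7 was 20, against 7 over all 32851 promoters (quartiles 3 and 20). It ranged from 8 in *Edc4* to 31 in *Pan3*. The sequence CCGGAA, a form of the ETS motif, was present on either strand in 4 of the 7, against 14.9% of all promoters. These 4 belonged to *Dcp1a*, *Dcp1b*, *Edc3* and *Edc4*, and the 150 bases that end each of these promoters are printed with motif matches in capitals.
Dcp1a, chr14:30479465-30479614, plus strand: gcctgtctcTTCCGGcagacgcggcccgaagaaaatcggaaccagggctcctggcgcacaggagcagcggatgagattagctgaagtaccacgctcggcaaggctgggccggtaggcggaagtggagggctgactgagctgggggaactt
Dcp1b, chr6:119175153-119175302, plus strand: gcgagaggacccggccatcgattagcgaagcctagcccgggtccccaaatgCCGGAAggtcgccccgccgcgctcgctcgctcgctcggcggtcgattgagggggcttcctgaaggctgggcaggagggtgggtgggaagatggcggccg
Edc3, chr9:57708469-57708618, plus strand: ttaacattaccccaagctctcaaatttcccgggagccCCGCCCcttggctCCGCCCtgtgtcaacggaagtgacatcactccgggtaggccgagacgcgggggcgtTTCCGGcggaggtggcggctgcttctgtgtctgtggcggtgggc
Edc4, chr8:105880781-105880930, plus strand: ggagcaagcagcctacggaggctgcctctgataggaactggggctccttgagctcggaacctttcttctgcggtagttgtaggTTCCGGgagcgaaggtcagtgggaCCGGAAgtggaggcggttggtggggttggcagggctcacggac
In these windows the capitals TTCCGG and CCGGAA mark this ETS sequence, which *Edc4* holds on both strands, and other forms of the motif were not searched. The capitals CCGCCC in *Edc3* mark a GC box (GGGCGG) read from the opposite strand. No printed match overlaps another. Over all 7 promoters the GC box was present in 2 (35.7% of all promoters), the CCAAT box (CCAAT) in 2 (37.4%), the NRF1 palindrome in 2 (4.6%), namely *Dcp1a* and *Pan3*, and TATAAA in 0 (13.6%), each searched on both strands. CCGGAA, the GC box and the NRF1 palindrome each hold a CpG, and the shares of all promoters were not matched for CpG content. The arrays measured RNA only, and the matches describe the sequence without showing that a factor was bound.

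Log2 signals are given throughout, after each array had been brought to the same median (50th percentile) and signals under 5 had been set to 5. The tests covered the 26712 probes that the scanner software placed well above background on both replicates of some genotype. On the 2 Nanos2-/- arrays the *Nanos2* probe did not stand well above background. It was at least 89.5-fold brighter in Nanos2+/- and at least 1140-fold brighter in Nanos2-/-_Tg+. In Nanos2-/-_Tg+ it was 12.7-fold brighter than in Nanos2+/-, without overlap, a difference that missed the 0.05 limit (limma adjusted *p* = 0.0564). Slide and genotype cannot be told apart in any comparison with Nanos2+/-, because its 2 arrays shared 1 slide while the remaining 4 shared another. Markers of germ cells, Sertoli cells and Leydig cells were detected throughout. The summed signal of 6 germ cell markers was 88542 and 173726 in Nanos2+/-, 153781 and 167712 in Nanos2-/-, and 170053 and 165245 in Nanos2-/-_Tg+. The low sum on replicate 1 of Nanos2+/- was carried by *Dppa5a*, which read 15.57 there and 16.81 to 16.95 on the other arrays. Of the 6 markers 3 were lowest on that array, whereas *Dnd1* read 13.54 there against 12.75 to 12.92 on the Nanos2-/- and Nanos2-/-_Tg+ arrays. The study names *Dppa5* among the genes raised in Nanos2-/- and Nanos2-/-_Tg+ gonads, so the germ cell sum does not measure germ cell content alone. Over the markers of the other cell types, the sums ran from 44369 to 58000 for Sertoli cells, 79982 to 105036 for Leydig cells, 5159 to 6219 for endothelium, 893 to 1122 for macrophages, 14153 to 33722 for erythroid cells and 300 to 1141 for mesonephros. The part of these differences in the values below was not tested.

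The decapping and decay genes were expressed in all 3 genotypes, and none passed the test between genotypes. All 12 probes were well above background on all 6 arrays. A call required a limma adjusted *p* below 0.05 and a change of 2-fold or more, and 0 of the 12 were called in each of the 3 comparisons. Over all probes tested, the calls made up 0.0674% between Nanos2-/- and Nanos2+/-, 0.105% between Nanos2-/-_Tg+ and Nanos2+/-, and 0.0187% between Nanos2-/-_Tg+ and Nanos2-/-. With so few calls in all, 0 of 12 does not set these genes apart. At an unadjusted limma *p* below 0.05 there were 2, 1 and 1 of the 12 probes, against 9.08%, 11.6% and 2.74% of all probes in the same order. The methods' t-test, unadjusted with a 2-fold limit, listed 0, 0 and 0 of them, against 0.573%, 0.876% and 0.15% of all probes. A missed threshold does not show equal levels, so the intervals of the differences were examined. The 95% interval lay inside 2-fold for 10 of 12 probes between Nanos2-/- and Nanos2+/- (80.2% of all probes), for 9 between Nanos2-/-_Tg+ and Nanos2+/- (77.5%) and for 11 between Nanos2-/-_Tg+ and Nanos2-/- (86.2%). These counts depended on the background correction and were 2, 2 and 5 with the normexp method.

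**Figure D1:**
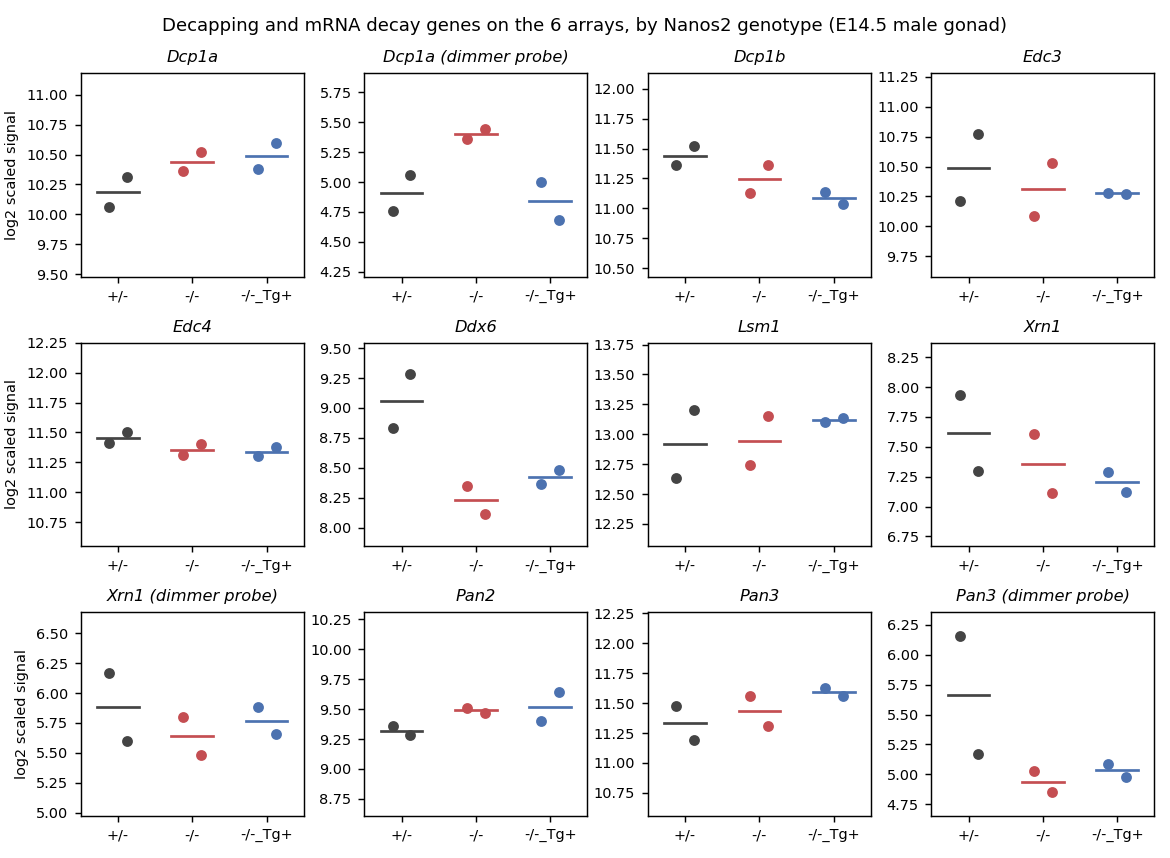
Log2 signal of the 12 probes (vertical axis, with the same span in every panel) by *Nanos2* genotype (horizontal axis); points are arrays, with replicate 1 at the left, and bars are means of 2 arrays. The 2 Nanos2+/- points of *Ddx6* lie above the other 4, at 8.83 and 9.28 against 8.11 to 8.48, while *Edc4* spans only 11.3 to 11.5 over all 6 arrays.

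The *DCP1* paralogs encode the activating partners of DCP2, and DCP1A is widely used to mark P-bodies. The brighter *Dcp1a* probe gave log2 signals of 10.06 and 10.31 in Nanos2+/-, 10.36 and 10.52 in Nanos2-/-, and 10.38 and 10.6 in Nanos2-/-_Tg+. Both Nanos2+/- arrays were the lowest, and the other 2 genotypes overlapped. Against Nanos2+/-, the log2 difference was 0.26 in Nanos2-/- (SE 0.198, 95% interval -0.2 to 0.72, limma adjusted *p* = 0.771) and 0.31 in Nanos2-/-_Tg+ (95% interval -0.15 to 0.77, limma adjusted *p* = 0.616). The dimmer *Dcp1a* probe gave 4.76 and 5.06, 5.36 and 5.44, and 5 and 4.68 in the same order. Here Nanos2-/- alone stood high, with a difference of 0.49 from Nanos2+/- (limma adjusted *p* = 0.55) and a difference of -0.55 for Nanos2-/-_Tg+ against Nanos2-/- (95% interval -1.04 to -0.07, limma adjusted *p* = 1), where the brighter probe gave 0.05. The 2 probes therefore ordered the genotypes differently, and their values correlated with r = 0.208 over the 6 arrays.

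*Dcp1b* read 11.36 and 11.52 in Nanos2+/-, 11.13 and 11.36 in Nanos2-/-, and 11.14 and 11.04 in Nanos2-/-_Tg+. Nanos2-/-_Tg+ lay below Nanos2+/- without overlap, and Nanos2-/- overlapped both other genotypes. The difference from Nanos2+/- was -0.19 in Nanos2-/- (95% interval -0.63 to 0.25) and -0.35 in Nanos2-/-_Tg+ (95% interval -0.79 to 0.09, limma adjusted *p* = 0.541). On the main scale the brighter *Dcp1a* probe and *Dcp1b* thus differed from the control in opposite directions, each within the error of 2 arrays. The dimmer *Dcp1a* probe gave 0.49 in Nanos2-/- but -0.07 in Nanos2-/-_Tg+, there with the sign of *Dcp1b*. The *Dcp1b* differences turned to 0.76 and 0.56 when the background was corrected by the normexp method (0.2 and 0.03 relative to the median of all probes).

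EDC3 and EDC4 are scaffolds that bring decapping factors together, EDC4 joining DCP1 to DCP2. *Edc4* had the narrowest spread of the 12 probes, with 11.41 and 11.5 in Nanos2+/-, 11.31 and 11.4 in Nanos2-/-, and 11.3 and 11.38 in Nanos2-/-_Tg+. The Nanos2+/- arrays were the highest by a small margin. Its differences from Nanos2+/- were -0.1 in Nanos2-/- (SE 0.178, 95% interval -0.51 to 0.32) and -0.11 in Nanos2-/-_Tg+ (95% interval -0.53 to 0.3), and it was -0.02 between the latter and Nanos2-/-. With normexp correction the differences from Nanos2+/- turned to 0.87 and 0.81, or 0.31 and 0.29 relative to the median of all probes. *Edc3* read 10.21 and 10.77 in Nanos2+/-, 10.09 and 10.53 in Nanos2-/-, and 10.28 and 10.27 in Nanos2-/-_Tg+. Its 3 genotypes overlapped, and replicates differed by up to 0.56. The differences from Nanos2+/- were -0.17 and -0.21 in Nanos2-/- and Nanos2-/-_Tg+ (limma adjusted *p* = 0.894 and 0.822), and they became 0.11 and 0.07 without replicate 2 of Nanos2+/-. With normexp they were 0.67 and 0.58, or 0.11 and 0.05 relative to the median of all probes.

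DDX6 is a DEAD-box helicase that represses translation, activates decapping and is required for P-body assembly. Its probe gave the lowest values in the 2 genotypes without functional *Nanos2*, at 8.35 and 8.11 in Nanos2-/- and 8.36 and 8.48 in Nanos2-/-_Tg+, against 8.83 and 9.28 in Nanos2+/-. All 4 of these arrays lay below both Nanos2+/- arrays. The difference was -0.83 in Nanos2-/- (SE 0.221, 95% interval -1.34 to -0.31, limma adjusted *p* = 0.307), a signal 1.77-fold lower. In Nanos2-/-_Tg+ it was -0.64 (95% interval -1.15 to -0.12, limma adjusted *p* = 0.318), or 1.56-fold lower. These were the largest differences of any of the 9 genes by its brightest probe, and neither passed the test. Both comparisons share the Nanos2+/- arrays and the contrast of slides. Within the slide that held the other 4 arrays, Nanos2-/-_Tg+ differed from Nanos2-/- by 0.19 (95% interval -0.33 to 0.7, limma adjusted *p* = 1). Without replicate 2 of Nanos2+/- the differences from the control were -0.6 and -0.41, and without replicate 1 they were -1.05 and -0.87. With normexp correction they were -0.08 and 0.08, where the median of all probes moved by 0.56 and 0.52; relative to that median they were -0.64 and -0.45.

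LSM1 is the subunit that sets the cytoplasmic LSM ring apart from the nuclear ring, and the cytoplasmic ring binds the shortened tail of mRNAs. *Lsm1* read 12.63 and 13.2 in Nanos2+/-, 12.74 and 13.15 in Nanos2-/-, and 13.1 and 13.14 in Nanos2-/-_Tg+. The genotypes overlapped, with the lowest value on replicate 1 of both Nanos2+/- and Nanos2-/-. The differences were 0.03 in Nanos2-/- and 0.21 in Nanos2-/-_Tg+ against Nanos2+/- (95% intervals -0.55 to 0.61 and -0.38 to 0.79).

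XRN1 is the exonuclease that degrades decapped mRNA. The brighter *Xrn1* probe gave 7.93 and 7.3 in Nanos2+/-, 7.61 and 7.11 in Nanos2-/-, and 7.29 and 7.12 in Nanos2-/-_Tg+. Replicate 1 of Nanos2+/- was the highest array, and Nanos2-/-_Tg+ lay just below both Nanos2+/- arrays. The difference from Nanos2+/- was -0.25 in Nanos2-/- (95% interval -0.89 to 0.39) and -0.41 in Nanos2-/-_Tg+ (95% interval -1.05 to 0.23, limma adjusted *p* = 0.64). With normexp these were 0.29 and 0.12, but -0.27 and -0.41 relative to the median of all probes. The dimmer probe gave -0.24 and -0.11 for the same comparisons, and the probes followed each other over the arrays (r = 0.867). Between Nanos2-/-_Tg+ and Nanos2-/- they differed in sign, at -0.16 and 0.13.

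PAN2 is the nuclease and PAN3 the adaptor of a deadenylase that trims long poly(A) tails. *Pan2* read 9.36 and 9.28 in Nanos2+/-, 9.51 and 9.47 in Nanos2-/-, and 9.4 and 9.64 in Nanos2-/-_Tg+. The Nanos2+/- arrays were the lowest, with differences of 0.16 (95% interval -0.27 to 0.6) and 0.2 (95% interval -0.23 to 0.63) for the other 2 genotypes. The brighter *Pan3* probe gave 11.48 and 11.19, 11.56 and 11.31, and 11.63 and 11.56 in the order Nanos2+/-, Nanos2-/- and Nanos2-/-_Tg+. Nanos2-/-_Tg+ lay above Nanos2+/-, by 0.26 (limma adjusted *p* = 0.689), and Nanos2-/- overlapped Nanos2+/- with a difference of 0.1. The dimmer *Pan3* probe gave 6.16 and 5.17, 5.03 and 4.85, and 5.09 and 4.98. Its high value rested on replicate 1 of Nanos2+/-, and its differences from the control were -0.73 (95% interval -1.46 to 0, limma adjusted *p* = 0.552) and -0.63 (limma adjusted *p* = 0.5), opposite in sign to those of the brighter probe. The correlation of the 2 *Pan3* probes over the arrays was 0.0583.

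**Figure D2:**
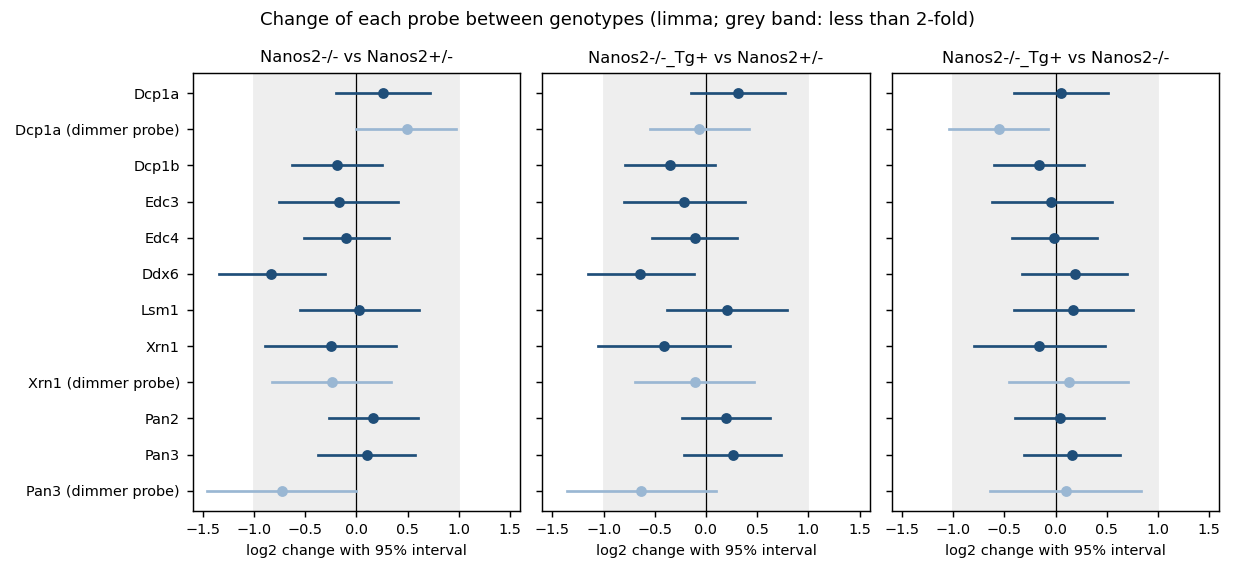
Log2 difference of each probe (points) with its 95% limma interval (lines) for the 3 comparisons, dark for the brightest probe of a gene and light for the dimmer probe; the grey band marks less than 2-fold. The *Ddx6* interval lies below 0 against Nanos2+/- (-1.34 to -0.31 and -1.15 to -0.12) and spans 0 between Nanos2-/-_Tg+ and Nanos2-/- (-0.33 to 0.7).

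With each gene given by its brightest probe, 4 of the 9 genes were higher and 5 lower in Nanos2-/- than in Nanos2+/-, with a median difference of -0.1 against -0.04 over all probes. In Nanos2-/-_Tg+ the counts were again 4 and 5, with a median of -0.11 against -0.01. Between Nanos2-/-_Tg+ and Nanos2-/- they were 5 and 4, with a median of 0.04 against 0.03. With normexp correction the medians against Nanos2+/- were instead 0.87 and 0.81, or 0.31 and 0.29 relative to the median of all probes, so the direction over the genes is not settled. Arrays of the 2 genotypes did not overlap for 3 of the 12 probes on the higher side and 3 on the lower side in Nanos2-/- against Nanos2+/-, where 14.3% and 21.7% of all probes did not. For Nanos2-/-_Tg+ against Nanos2+/- the numbers were 3 higher and 5 lower (18.6% and 20.3% of all probes). Between Nanos2-/-_Tg+ and Nanos2-/- they were 1 higher and 1 lower (20% and 11.4%).

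The 2 arrays of the control differed from each other more than those of the other genotypes did. Over the 12 probes, the median absolute difference between the 2 arrays was 0.379 in Nanos2+/-, 0.237 in Nanos2-/- and 0.119 in Nanos2-/-_Tg+. Over the 24953 probes detected well above background on all 6 arrays it was 0.324, 0.191 and 0.174. *Dcp1a*, *Dcp1b*, *Edc3*, *Edc4* and *Lsm1* were higher on replicate 2 than on replicate 1 in both Nanos2+/- and Nanos2-/-, *Pan2*, *Pan3* and *Xrn1* were lower on it in both, and *Ddx6* differed in sign between the 2 genotypes. Nanos2-/-_Tg+ did not follow this in several genes, with replicate 2 minus replicate 1 at -0.1 in *Dcp1b*, -0.01 in *Edc3*, -0.32 for the dimmer *Dcp1a* probe and 0.25 in *Pan2*. All 6 germ cell markers were also higher on replicate 2 of Nanos2+/- and Nanos2-/-. *Pou5f1* was higher on replicate 2 by 1.81 in Nanos2+/-, 1.86 in Nanos2-/- and 1.83 in Nanos2-/-_Tg+. By contrast, *Dnd1*, *Dppa5a* and *Nanos3* were lower on replicate 2 of Nanos2-/-_Tg+. The part of the germ cell markers in these differences was not tested.

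**Figure D3:**
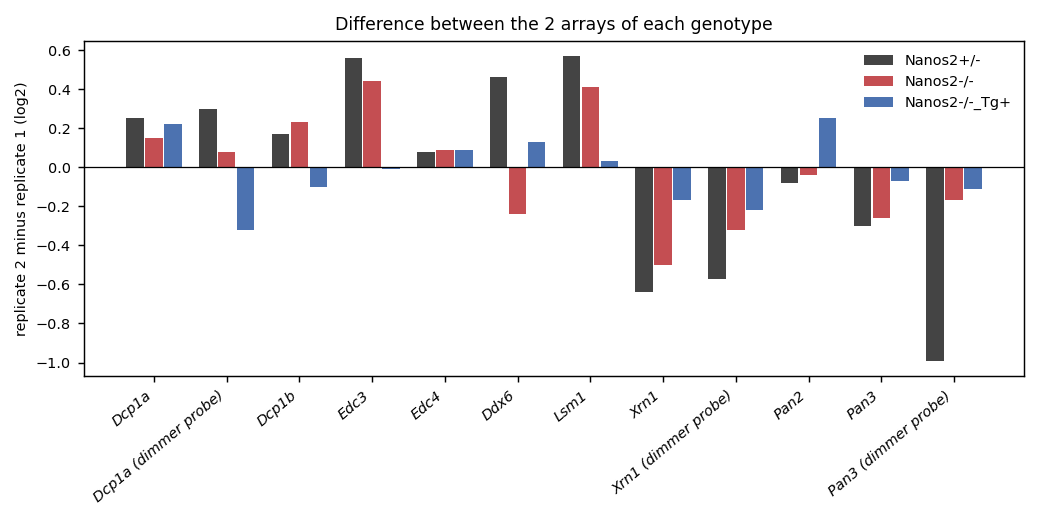
Replicate 2 minus replicate 1 of each genotype in log2 signal (vertical axis) for the 12 probes (horizontal axis); bars are single differences between 2 arrays. The Nanos2+/- bars run from -0.99 for the dimmer *Pan3* probe to 0.57 for *Lsm1*, and the Nanos2-/-_Tg+ bars from -0.32 to 0.25.

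The genes did not move as a block over the 6 arrays. Among the 36 pairs of genes the median Pearson r was 0.021, with 18 pairs above 0. It reached 0.802 for *Dcp1b* with *Edc4*, and *Edc3* with *Edc4* stood at 0.789 and *Dcp1b* with *Edc3* at 0.763. At the other end, *Lsm1* and *Xrn1* had r = -0.941, with *Lsm1* low where *Xrn1* was high on replicate 1 of Nanos2+/- and Nanos2-/-. These values describe 6 arrays that share their slides and scaling. Among the genes most like *Ddx6* over the arrays were *Ppm1h* (r = 0.989) and *Bcam* (0.987), and 416 of 12978 genes had r above 0.9. For *Dcp1a* they were *Pfdn4* (0.999), *Gid8* (0.997) and *Dars* (0.997), with 713 genes above 0.9. For *Xrn1* they were *Nr4a2* (0.975), *Cacna2d1* (0.973) and *Klhl10* (0.966), with 35 genes above 0.9.

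The rest of the mRNA decay pathway was examined in lists set by role, each gene again given by its brightest probe. In any comparison 0 genes of any list were called, which does not set the lists apart because few probes were called in all. The list closest in function, 16 further decapping cofactors and LSM subunits, had a median difference of -0.08 in Nanos2-/- and -0.05 in Nanos2-/-_Tg+ against Nanos2+/-. *Lsm14a*, a P-body protein that binds DDX6, had the highest differences, at 0.51 (limma adjusted *p* = 0.55) and 0.67 (limma adjusted *p* = 0.293). It read 10.07 and 9.92 in Nanos2+/-, 10.33 and 10.67 in Nanos2-/-, and 10.49 and 10.84 in Nanos2-/-_Tg+, with no overlap between the control and the others. *Dcps*, the scavenger enzyme that clears cap remnants, was lowest in Nanos2-/- at -0.3, and *Dxo*, which removes faulty caps, in Nanos2-/-_Tg+ at -0.34. Between Nanos2-/-_Tg+ and Nanos2-/- the list ran from -0.12 for *Lsm3* to 0.35 for *Lsm5*.

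The 14 genes of the exosome and Ski complex, which degrade mRNA from its tail end, had medians of -0.02 and 0.06 against Nanos2+/-. Their lowest and highest values were -0.33 for *Exosc10* and 0.3 for *Exosc9* in Nanos2-/-, and -0.3 and 0.49 for the same genes in Nanos2-/-_Tg+. Between Nanos2-/-_Tg+ and Nanos2-/- they ran from -0.1 for *Dis3l* to 0.19 for *Exosc9*. The 7 poly(A) tail genes had medians of 0.03 and 0.07, from *Pabpc1*, the cytoplasmic poly(A)-binding protein (-0.32 and -0.21), to *Papola*, a poly(A) polymerase (0.21 and 0.29). On the shared slide this list ran from -0.11 for *Parn* to 0.27 for *Paip1*. Other probes gave -0.63 and -0.08 for *Paip1* there, and 1 of 2 other *Papola* probes turned to -0.2 in Nanos2-/-_Tg+ against Nanos2+/-.

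Wider values were found among the 7 genes of microRNA silencing and the 8 of nonsense-mediated decay. *Ago1*, an Argonaute protein, entered the test only through Nanos2+/-, the genotype in which both arrays stood well above background. It did not reach the background limit on the 2 Nanos2-/- arrays, so only lower bounds of its differences from them are given. These bounds were 1.68-fold for Nanos2+/- and 1.13-fold for Nanos2-/-_Tg+, where 1 of 2 arrays measured it. The limma adjusted *p* of 0.19 between Nanos2-/- and Nanos2+/- belongs to the fitted difference of -1.38 and not to the bound. That fit used Nanos2-/- values of 2.95 and 3.02, which did not reach the limit, so no conclusion is drawn from it. *Ago4* had the lowest difference in Nanos2-/-_Tg+ against Nanos2+/-, at -0.85 (limma adjusted *p* = 0.294), *Ago2* the lowest against Nanos2-/-, at -0.32, and *Dicer1*, which cuts microRNA precursors, the highest against Nanos2+/-, at 0.37 and 0.08. Other probes of these genes disagreed, with -0.16 and 0.03 for *Ago4* in Nanos2-/-_Tg+ and -0.39 and -0.75 for *Dicer1* in Nanos2-/- and Nanos2-/-_Tg+. *Smg8*, a regulator of the kinase SMG1, read 4.99 and 5.54 in Nanos2+/-, 6.12 and 6.75 in Nanos2-/-, and 6.35 and 6.71 in Nanos2-/-_Tg+. Both other genotypes lay above the control without overlap, by 1.17 (limma adjusted *p* = 0.271) and 1.27 (limma adjusted *p* = 0.175). The lowest values of this list were -0.41 for *Smg9* in Nanos2-/- and -0.39 for *Upf3b* in Nanos2-/-_Tg+, and within the shared slide it ran from -0.17 for *Upf3b* to 0.43 for *Smg1*. Of 2 other *Upf3b* probes, 1 gave 0.23 in Nanos2-/-_Tg+ against Nanos2+/-, and other *Smg1* probes ran from -0.9 to 0.37 on the shared slide.

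**Figure D4:**
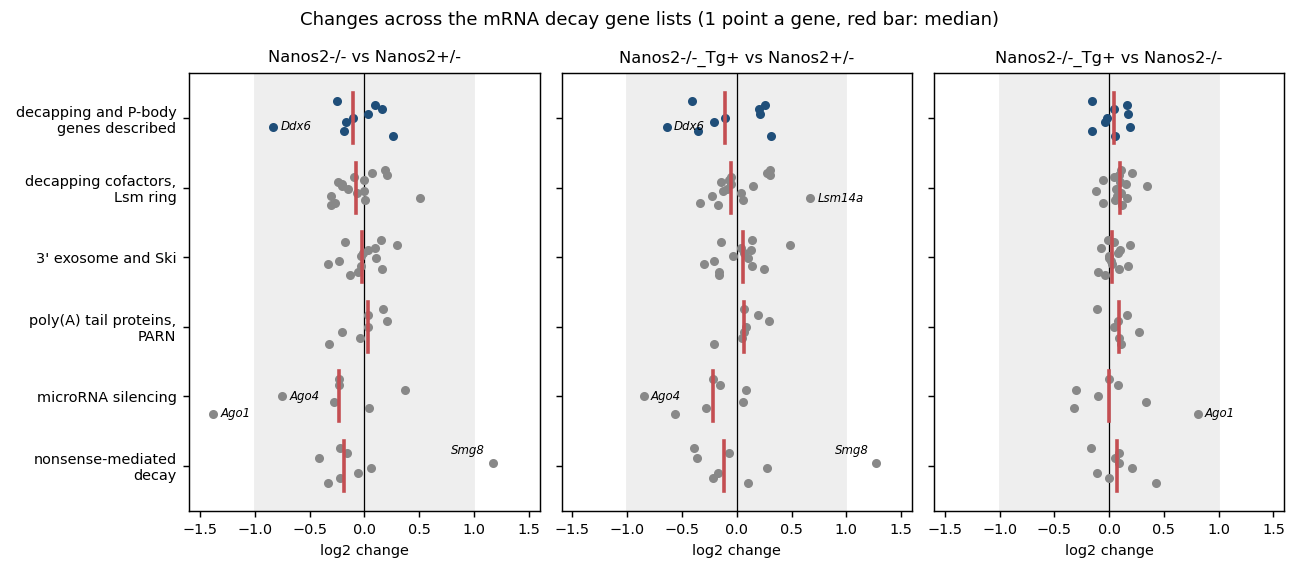
Log2 difference of each gene (points, 1 a gene by its brightest probe) in the 6 lists for the 3 comparisons, with the median of each list as a red bar and less than 2-fold as the grey band; named points exceed 0.6 in size. Medians lie between -0.23 and 0.1 in every list and comparison, and the *Ago1* points, dim in Nanos2-/-, are fitted values and not bounds.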

How the data were processed

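The authors labeled 200 ng of gonad RNA per array with Cy3 and hybridized it to Whole Mouse Genome arrays. The deposited scanner files hold the processed intensity of 45018 spots per array (1639 controls), after background subtraction by Feature Extraction, for which the submitters' processing notes give version 9.5. By the methods, the authors applied a floor of 5, a per-array scaling on the 50th percentile and a per-gene centering on the median. Here controls and outlier spots were left out, arrays were scaled to the same 50th percentile, values under 5 were raised to 5, log2 was taken and spots were averaged per probe. Between 64.1 and 66.7% of probes were well above background, counted where at least 50% of a probe's spots were, and no spot was saturated. The number of arrays limits the precision.

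Gene names came from RefSeq accessions (23374 probes matched). limma 3.58.1 (R 4.3.3; lmFit and eBayes over all 6 arrays) was fitted on all 26712 tested probes, with Benjamini-Hochberg adjustment. An exact rank test of 2 arrays against 2 cannot give a two-sided *p* below 0.333. Named are all matched probes of the 9 genes, *Nanos2*, the genes with the highest and lowest difference of each decay list, and the 3 genes most correlated with *Dcp1a*, *Ddx6* and *Xrn1*, of which 1 is not reported here; the genes of the marker lists are given by their sums. The genes, lists and tests were chosen with earlier results of these data known. The background rule for probes with several spots, and the way arrays were left out in turn, were settled after output had been seen. No probe of these genes was called in the versions reported, in which few probes were called in all.

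Simulated data with 200 of 26712 probes changed 8-fold were used to test the fit. Smaller changes were not simulated, so the recovery of differences of the size described here is not known. With noise drawn from the fitted prior, the changed probes recovered by limma numbered 199, 197 and 190 (in the order Nanos2-/- and Nanos2-/-_Tg+ against Nanos2+/-, then Nanos2-/-_Tg+ against Nanos2-/-), and 3.4, 4.37 and 4.52% of its calls were false. With noise set to the variance of each probe on the arrays, after limma had drawn it toward the prior, it recovered 200 in each. Of these calls 7.83, 7.41 and 6.98% were false, above the 5% that the threshold allows. The prior scheme was adopted after a run of the other had given more false calls than a limit set for it, so both are reported.

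The results were recomputed with quantile normalization, the 75th percentile, normexp (offset 50, on median in place of mean spot signals), the floor before scaling, a floor of 20, other filters, outliers kept, the series' value table of processed intensity, a replicate block, 4 arrays only, a variance trend, the methods' t-test with equal variances, probes averaged per gene, and each array left out. Figures were drawn with matplotlib 3.10.9 and pandas 2.3.3 in Python 3.11.15.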

Additional observations from a re-analysis of the deposited data

How the results depend on the processing

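No probe of the decapping and decay genes was called in any comparison under any alternative. Calls were rare over all probes in the main fit, at 0.0674% between Nanos2-/- and Nanos2+/-. They were 0.105% between Nanos2-/-_Tg+ and Nanos2+/-, and 0.0187% between Nanos2-/-_Tg+ and Nanos2-/-. With normexp, and with the higher floor, no probe at all was called. The absence of calls therefore does not show a stable result for these genes. The sign of small differences was not stable. Of the 27 differences (9 genes in 3 comparisons), 13 turned sign under an alternative other than normexp. Under normexp 10 did, of which 7 also turned relative to the median of all probes. The only gene whose interval excluded 0 by its brightest probe was *Ddx6*. Its limma adjusted *p* against Nanos2+/- lay between 0.166 and 0.965 over the alternatives in Nanos2-/- and between 0.185 and 0.915 in Nanos2-/-_Tg+. Differences between 2 arrays and 2 arrays of less than about the replicate spread could not be resolved, and larger ones could be missed too. *Nanos2* itself was not called between Nanos2-/-_Tg+ and Nanos2+/-, at 3.67 with replicate SDs of 0.684 and 0.96 (limma adjusted *p* = 0.0564). The simulated arrays gave false calls above the threshold's share under 1 of 2 noise schemes.

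Normexp background correction had the widest effect and moved the median of all probes against Nanos2+/- by 0.56 and 0.52. Under it the difference of Nanos2-/- from Nanos2+/- turned to 0.76 in *Dcp1b*, 0.67 in *Edc3*, 0.87 in *Edc4* and 0.29 in *Xrn1*. For Nanos2-/-_Tg+ against Nanos2+/- it turned to 0.56 in *Dcp1b*, 0.08 in *Ddx6*, 0.58 in *Edc3*, 0.81 in *Edc4* and 0.12 in *Xrn1*, and for Nanos2-/-_Tg+ against Nanos2-/- to -0.03 in *Pan2*. Relative to the median of all probes *Xrn1* (-0.27 and -0.41) and *Ddx6* (-0.45) did not turn, and their turns came with the shift common to all probes. The median over the genes became 0.87, 0.81 and -0.03 in the 3 comparisons, and the number of probes with an interval inside 2-fold became 2, 2 and 5. The cause of that shift was not tested. With all probes of a gene averaged, *Dcp1a* turned to -0.25 between Nanos2-/-_Tg+ and Nanos2-/-, *Pan3* to -0.31 and -0.18 against Nanos2+/-, and the medians against Nanos2+/- were -0.17 and -0.18.

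With each array left out in turn, the lone array of a genotype was assumed to vary like the other genotypes. The median over the genes ranged from -0.14 to -0.03 for Nanos2-/- and -0.16 to 0.07 for Nanos2-/-_Tg+ against Nanos2+/-, and from -0.06 to 0.13 between them. Against Nanos2+/- the range for Nanos2-/- was -0.45 to 0.11 in *Edc3*, -0.25 to 0.32 in *Lsm1*, -0.05 to 0.25 in *Pan3* and -0.57 to 0.07 in *Xrn1*. For Nanos2-/-_Tg+ it was -0.49 to 0.07 in *Edc3* and -0.08 to 0.49 in *Lsm1*. Between Nanos2-/-_Tg+ and Nanos2-/- it was -0.06 to 0.16 in *Dcp1a*, -0.25 to 0.18 in *Edc3*, -0.06 to 0.03 in *Edc4*, -0.03 to 0.38 in *Lsm1*, -0.09 to 0.16 in *Pan2* and -0.41 to 0.09 in *Xrn1*. Calls over all probes ranged from 13 to 47, 21 to 85 and 1 to 29 in the 3 comparisons, the highest without replicate 1 of Nanos2-/- each time, and 85 also without its replicate 2.

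Calls over all probes, 18, 28 and 5 in the 3 comparisons, depended on the setting. Against Nanos2+/- they were 5 and 10 with the 75th percentile, 5 and 10 with quantile normalization, and 5 and 18 with a variance trend, and 3 between Nanos2-/-_Tg+ and Nanos2-/- with the trend. They were 0, 0 and 0 with normexp, 0, 0 and 0 with a floor of 20, 1, 5 and 1 for probes well above background on all 6 arrays, 2, 4 and 0 without a filter, and 38, 85 and 1 with only the 4 arrays compared. The methods' t-test listed 153, 234 and 40 unadjusted and 0, 0 and 0 after Benjamini-Hochberg adjustment. The replicate number as a block gave 145 calls for Nanos2-/-_Tg+ against Nanos2+/-. Deviations of same-numbered arrays correlated with r = 0.407, 0.35 and 0.29 between the genotypes, but there are only 2 numbers and the labels do not say what a number shares. With the block the limma adjusted *p* of *Ddx6* was 0.166 in Nanos2-/- and 0.185 in Nanos2-/-_Tg+, and the block called no probe of these genes.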
